A study of Saccharomyces cerevisiae with 17 samples.

Results

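VIN13, a commercial Saccharomyces cerevisiae wine yeast, was followed from early into late stationary phase of a wine fermentation, and transcript levels at day 14 were compared with those at day 5. All 3 arrays of VIN13 at day 5 and all 3 at day 14 were taken, as labelled by strain and day, which makes 6 of the 17 arrays measured, and each was read over all 5449 S. cerevisiae genes of the array annotation. Both groups are unmodified yeast in grape must of the cultivar Colombar, held with little oxygen, and they differ in the label only by the day. The other 11 arrays hold VIN13 at day 2, in exponential growth, and a second commercial strain, BM45, at days 2, 5 and 14. Replicates of a group are numbered in the labels, which do not say that they came from separate fermentations, so the p-values below measure the spread between these samples only.

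In a wine fermentation yeast cells stop dividing once an assimilable nutrient, often nitrogen, runs short, and then go on fermenting sugar for days without growth while ethanol accumulates. Cells in stationary phase are known to make fewer ribosomes, to store trehalose and glycogen, to hold high levels of small heat shock proteins and, as sugar nears its end, to turn on genes for other carbon sources that glucose represses. Permeases for poor nitrogen sources are kept off by nitrogen catabolite repression as long as a good source such as ammonium is at hand.

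The values are the authors' deposited array intensities, on a linear scale. Array values are relative to the other transcripts on the array, and in a culture measured as a whole, fewer cells with a transcript and less of it per cell cannot be told apart. Medians over all genes ran from 907.3 to 986.8 on the 6 arrays, and 3 arrays a group limit the precision. Replicate 3 of either day stood apart from the others: at day 5 it correlated at 0.984 and 0.982 with replicates 1 and 2, which correlated at 0.998, and at day 14 it correlated at 0.984 and 0.987 with replicates 1 and 4, which correlated at 0.995. The ratio of 3′ to 5′ signal of the ACT1 control probe sets, a measure of intact RNA and labelling, was 1.70, 1.65 and 2.86 on the day 5 arrays and 1.63, 2.37 and 1.90 on the day 14 arrays. The same ratio for SPT15 did separate the days, at 2.47, 2.40 and 2.71 at day 5 and 1.96, 2.22 and 2.28 at day 14. Those of TDH1, RIP1, WBP1 and SRB4 overlapped between the days, and SRB4 lay between 17.4 and 32.5. Control probe sets for ribosomal RNA separated the days as well. The 3′ control of 25S ribosomal RNA read 1627, 1876 and 329 at day 5 and 13074, 26834 and 30409 at day 14, and that of 18S ribosomal RNA read 84.2, 91.1 and 27.8 against 1744, 8846 and 6973. No day 14 array overlapped a day 5 array in either control. The part of this signal, or of the SPT15 ratio, in the gene changes below was not tested.

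**Figure D1:**
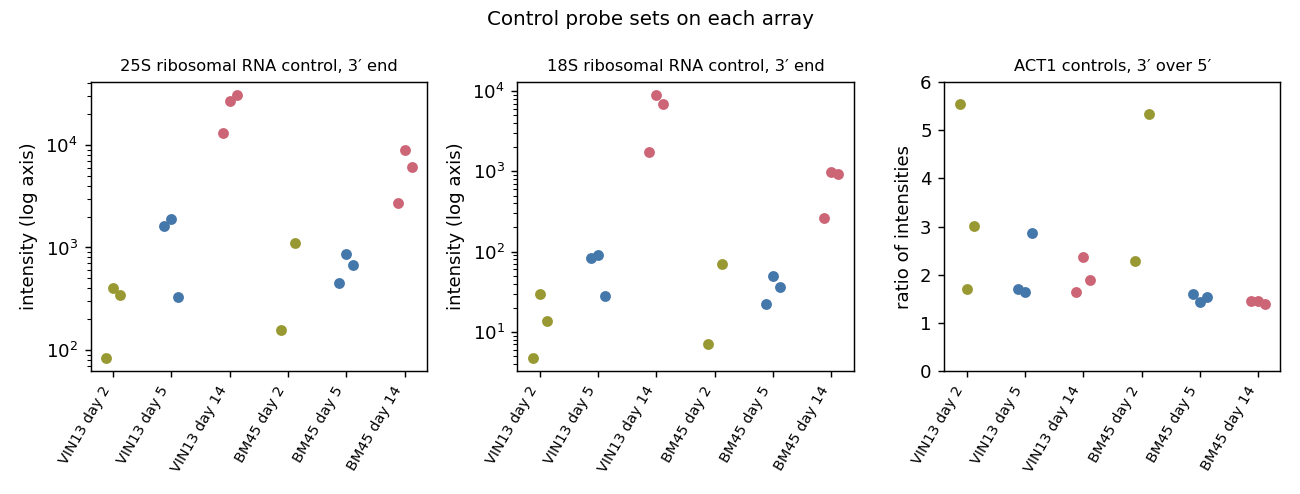
Points are single arrays, by strain and day, for the 3′ control probe sets of 25S and 18S ribosomal RNA (intensity, log axes) and for the ratio of 3′ over 5′ signal of the ACT1 control probe sets (linear axis). The 25S control sits between 13074 and 30409 on the 3 VIN13 arrays of day 14 and at most at 1876 on those of day 5, while the ACT1 ratios of these 2 groups overlap.

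Differences between days are given on the log2 scale, as the mean of log2(intensity + 16) at day 14 minus that at day 5, ± the standard error of the limma fit, with n = 3 arrays against 3. A gene is said to have risen or fallen where the p-value of limma, with Benjamini-Hochberg adjustment across all 5449 genes, is under 0.05. By this rule 2371 genes, or 43.5%, changed, of which 1034 (19%) rose and 1337 (24.5%) fell. Most of these changes were small. Among the genes that changed, 113 rose (2.07% of those tested) and 175 fell (3.21%) by at least 2-fold, and 8 rose and 5 fell by at least 4-fold. The 5th percentile of all genes lay at -0.89, the median at -0.03 and the 95th percentile at 0.77. All 3 arrays of day 14 lay above all 3 of day 5 in 25.3% of genes and below them in 29.7%. Counts in gene lists are given below beside these shares and this median.

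**Figure D2:**
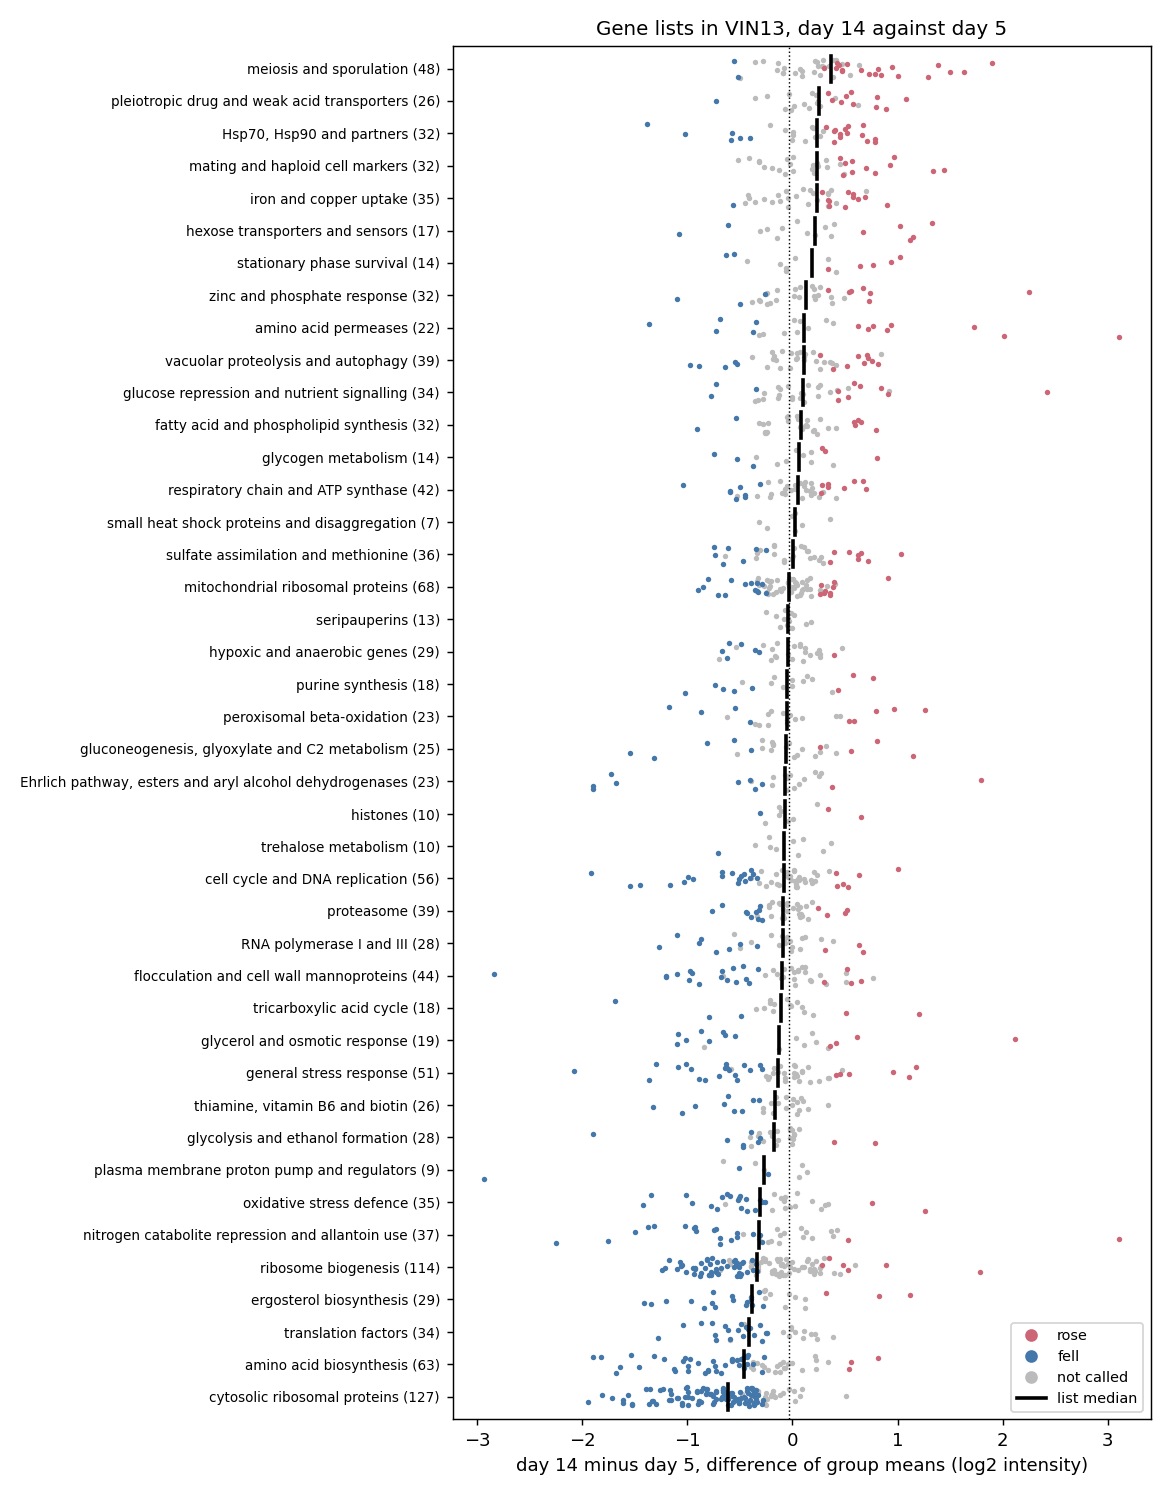
Each point is a gene, placed by its difference between day 14 and day 5 in VIN13 (log2 intensity), for 42 gene lists ordered by their medians, with the number of genes measured in brackets. Cytosolic ribosomal proteins have the lowest median, at -0.61, and genes of meiosis and sporulation the highest, at 0.36, and the dotted line marks the median of all genes, at -0.03.

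The largest rise was that of YMR244W, a gene whose product has no known function. Its intensity was 206, 248 and 243 at day 5 and 4826, 4864 and 4752 at day 14, in order of the replicate number, as for every gene below. All 3 late arrays lay far above the early ones and close to each other, a 19.5-fold rise (4.29 ± 0.11, adjusted p = 8.36e-13). AGP1, with the next largest rise, is a permease with a broad range of amino acids that prefers asparagine and glutamine. It read 1016, 924 and 345 at day 5 and 6977, 4565 and 6964 at day 14. The groups did not overlap, although replicate 3 was the lowest array of either day, and the rise was 8.61-fold (3.11 ± 0.45, adjusted p = 0.000101). DIP5, the permease of the acidic amino acids glutamate and aspartate, read 433, 567 and 614 at day 5 and 2411, 2160.4 and 2042 at day 14, a separation of all arrays and a 4.04-fold rise (2.01 ± 0.20, adjusted p = 7.97e-06). AGP2, a plasma membrane protein needed for carnitine uptake, was below the background bound, an intensity of 100.7 set from probe sets of another yeast, on average at day 5 and read 310.5, 245 and 300.5 at day 14, so that it rose at least 2.56-fold (adjusted p = 0.000211).

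CAT8, the zinc cluster activator that switches on gluconeogenic genes when glucose is gone, was the largest rise among regulators of carbon use. It read 451, 568 and 665 at day 5 and 2759.9, 3675 and 2779 at day 14 and, without overlap of the days, rose 5.36-fold (2.42 ± 0.20, adjusted p = 1.45e-06). GIT1, the transporter of glycerophosphoinositol, read 364, 358 and 313 at day 5 and 1911, 1584 and 1627 at day 14 and rose 4.76-fold (2.25 ± 0.34, adjusted p = 0.000134). ENA5, a sodium pump of the plasma membrane whose gene is one of a tandem of near-identical copies that a probe set may not separate, read 782, 896 and 926 at day 5 and 3348, 4354 and 3806 at day 14. Here too the late arrays lay above all early ones (2.12 ± 0.25, adjusted p = 1.93e-05). ARO10, the decarboxylase that commits phenylpyruvate and other keto acids to fusel alcohols, was among the most even of these genes, with 218, 207 and 227 at day 5 and 674, 871 and 858 at day 14 (1.80 ± 0.11, adjusted p = 1.47e-07).

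The other large rises included genes of varied roles. PHO92, a reader of methylated adenosine in RNA that is known from meiosis, read 119, 130.3 and 201 at day 5 and 451, 922 and 534 at day 14 (1.94 ± 0.22, adjusted p = 1.69e-05). Its late arrays were all above its early ones but ranged widely. PUF3, which binds transcripts for mitochondrial proteins, was below the background bound on average at day 5 and read 329, 331 and 354 at day 14, a rise of at least 2.78-fold (adjusted p = 0.00104). MRT4, a factor of large ribosomal subunit assembly, read 1389, 1356 and 1455 at day 5 and 4561, 5937 and 4242 at day 14 (1.78 ± 0.14, adjusted p = 1.22e-06). URN1, a protein that associates with the spliceosome, read 1643, 1504 and 949 at day 5 and 5647, 3933 and 4404 at day 14 (1.78 ± 0.23, adjusted p = 4.22e-05), and MND1, a partner in meiotic recombination, 369, 293 and 247 at day 5 and 1083, 1269 and 1140.4 at day 14 (1.90 ± 0.18, adjusted p = 4.45e-06). In each of these 3 genes the lowest late array was above the highest early one. Among genes with no standard name, large rises included YDL114W (2.47 ± 0.20, adjusted p = 1.37e-06) and YJL047C-A (2.15 ± 0.26, adjusted p = 2.98e-05), beside YMR244W.

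PMA2, the minor copy of the plasma membrane proton pump, fell the most. It read 1924, 2129 and 936 at day 5 and 317, 122 and 177 at day 14, and even its lowest early array was above its highest late one, a 7.63-fold fall (-2.93 ± 0.59, adjusted p = 0.00106). The main pump gene PMA1, a close paralogue with a similar coding sequence, read 8144, 8761 and 6083 at day 5 and 5129, 3988 and 5395 at day 14 and was not called (-0.66 ± 0.36, adjusted p = 0.151). DSE2, a daughter-cell protein of the wall that helps mother and daughter to part, read 726, 675 and 669.5 at day 5 and was below the background bound on average at day 14, so that it fell at least 5.66-fold (adjusted p = 6.83e-05). SIM1, a wall protein of the SUN family, read 961, 1001 and 497 at day 5 and 257, 107 and 100.3 at day 14 (-2.34 ± 0.37, adjusted p = 0.000211). In SIM1 the groups were apart but replicate 3 was low at day 5.

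HBT1, needed for polar shape of mating cells, fell 4.23-fold from 2321, 2945 and 3133 to 781, 635 and 538 (-2.08 ± 0.28, adjusted p = 5.6e-05). TKL2, the minor transketolase of the pentose phosphate pathway, fell 3.93-fold from 1614, 2034 and 2046 to 526, 396 and 493 (-1.97 ± 0.15, adjusted p = 1.09e-06), with no overlap of arrays and little spread. CLN3, the G1 cyclin that sets the size at which cells enter the cycle, read 2423, 2278 and 1812 at day 5 and 769.8, 357 and 628 at day 14 (-1.92 ± 0.28, adjusted p = 9.96e-05). PDC6, a minor pyruvate decarboxylase, went from 6751, 7631 and 8241 to 2844, 1366 and 2084 (-1.90 ± 0.33, adjusted p = 0.000372). All late arrays of either gene were below all early ones, replicate 3 being the lowest of the late arrays. PHO13, a phosphatase that clears toxic by-products of glycolytic enzymes, was the most even of the large falls, with 1366, 1548 and 1458 at day 5 and 442, 381 and 402 at day 14 (-1.80 ± 0.11, adjusted p = 1.47e-07). ADH6, an alcohol dehydrogenase that uses NADPH and acts on aromatic and branched aldehydes, read 1803, 1759 and 1331 at day 5 and 641, 364 and 468 at day 14 (-1.72 ± 0.19, adjusted p = 1.29e-05).

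**Figure D3:**
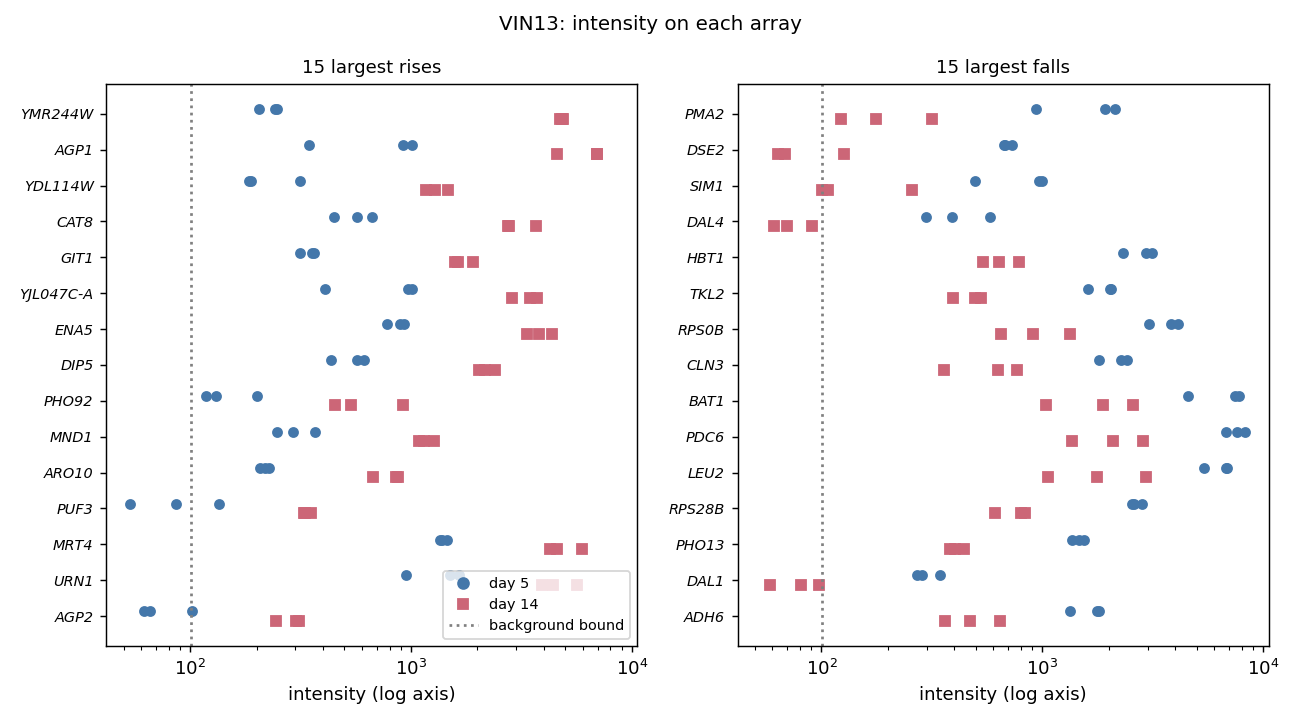
Points are the intensities (log axis) of the 15 genes with the largest rise and the 15 with the largest fall between day 5 (circles) and day 14 (squares) among called genes above the background bound (dotted, 100.7) whose arrays do not overlap, 3 arrays a day. YMR244W moves from at most 248 to at least 4752 and PMA2 from at least 936 to at most 317.

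Genes of protein synthesis fell together. Of the 127 cytosolic ribosomal protein genes measured, all above the background bound, 104 fell and none rose, 27 of them by at least 2-fold, and the list's median was -0.61, against 24.5% falling and a median of -0.03 over all genes. Both subunits took part, with 63 of 75 genes of the large and 41 of 52 of the small subunit falling, at medians of -0.59 and -0.62. RPS0B, of the small subunit, read 3809.9, 4092 and 3047 at day 5 and 1338, 647 and 912 at day 14, and fell 3.87-fold (-1.95 ± 0.23, adjusted p = 1.93e-05). RPS28B went from 2557, 2606 and 2831 to 836, 803 and 612 (-1.82 ± 0.20, adjusted p = 1.29e-05), and of the large subunit RPL8A went from 5882, 6187 and 5381 to 2249.7, 1491 and 1984 (-1.62 ± 0.13, adjusted p = 1.22e-06). No array of day 14 reached the level of day 5 in these 3 genes. The highest member, RPL9A, lay at 0.51 ± 0.24 and was not called (adjusted p = 0.0939). Most of these genes have a paralogue of nearly the same sequence, and a probe set may read both. The ribosomal RNA controls, given above, read higher at day 14, and that of 18S lay below the background bound on all 3 arrays of day 5. Whether these controls follow the level of ribosomal RNA in the cells was not tested, nor was their part in this fall.

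Translation factors moved the same way, with 21 of 34 falling, none rising and a median of -0.41. GCN3, a regulatory subunit of the initiation factor eIF2B, read 636, 696 and 651 at day 5 and 329, 222 and 248 at day 14 (-1.28 ± 0.13, adjusted p = 1.04e-05), and PRT1, a core subunit of eIF3, read 952, 995 and 1040.0 at day 5 and 569, 393 and 474 at day 14 (-1.05 ± 0.12, adjusted p = 1.67e-05). Both genes separated the days on all arrays. Of 114 ribosome biogenesis genes 48 fell and 6 rose (median -0.34). The helicase gene RRP3 went from 329, 364 and 425 to 168, 159 and 119 (-1.24 ± 0.16, adjusted p = 3.93e-05), and YTM1, of large subunit maturation, from 433, 426 and 493 to 215, 180.4 and 210.5 (-1.10 ± 0.16, adjusted p = 0.000116). MRT4, described above, and IMP4 (0.53 ± 0.10, adjusted p = 0.000873) rose instead. RNA polymerases I and III, which make ribosomal and transfer RNA, were mixed, with 8 genes of 28 falling and 3 rising. The polymerase I subunit gene RPA49 fell from 447, 464 and 547 to 235, 186 and 162 (-1.27 ± 0.18, adjusted p = 7.36e-05), while the largest subunit of polymerase III, RPO31, rose from 1754, 1946 and 2088 to 2918, 3137 and 2911 (0.63 ± 0.09, adjusted p = 6.53e-05), as did the polymerase I initiation factor RRN3 (0.67 ± 0.11, adjusted p = 0.000277). Mitochondrial ribosomal proteins moved both ways, at a median of -0.03. Over all genes 19% rose and 24.5% fell, and of these 68 genes 9 rose and 14 fell. Those that rose numbered 2 without replicate 1 or 2 of day 5 or replicate 3 of day 14, and those that fell 8 without replicate 4 of day 14.

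Genes of amino acid synthesis were mostly lower late. Of 63 biosynthetic genes 39 fell, 12 of them by at least 2-fold, and 3 rose, at a median of -0.46. The branched-chain pathway held several of the larger falls. BAT1, the mitochondrial transaminase of leucine, isoleucine and valine, read 7430.2, 7778 and 4567 at day 5 and 2566, 1035 and 1879 at day 14 (-1.90 ± 0.28, adjusted p = 0.000104). LEU2, of leucine synthesis, read 6884, 6759.9 and 5376 at day 5 and 2942, 1064 and 1759 at day 14 (-1.82 ± 0.29, adjusted p = 0.000199), and ILV5, the acetohydroxyacid reductoisomerase, read 4354, 4576 and 3270.5 at day 5 and 1927, 895 and 1211 at day 14 (-1.64 ± 0.26, adjusted p = 0.000179). In all of them the groups were apart and replicate 3 was the lowest array of its day. ARO8, a transaminase of aromatic amino acids, fell from 1187, 1229.9 and 798 to 423, 232 and 321 (-1.68 ± 0.19, adjusted p = 1.32e-05). Rises were those of LYS20, the first enzyme of lysine synthesis, from 4399.8, 4456 and 3805 to 7452, 7973 and 6837 (0.81 ± 0.10, adjusted p = 3.52e-05), of GDH3 (0.53 ± 0.13, adjusted p = 0.00415), a glutamate dehydrogenase and of ARG3 (0.56 ± 0.19, adjusted p = 0.0251), of arginine synthesis. The adjusted p of ARG3 was 0.107 without replicate 3 of day 5, and 0.0584 and 0.0882 without replicates 1 and 3 of day 14.

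Uptake genes split. Among 22 amino acid permeases 8 rose and 5 fell, the latter numbering 1 without replicate 2 of day 5 and 2 without replicate 3 of day 14. Besides AGP1, DIP5 and AGP2, TAT2, the tryptophan permease, was called higher but lay below the background bound on both days. ALP1, a basic amino acid transporter, read 130.2, 132 and 156 at day 5 and was below the bound at day 14, a fall of at least 1.33-fold (adjusted p = 0.000127). Genes under nitrogen catabolite repression were mostly lower, with 19 of 37 falling, 2 rising and a median of -0.32, although the fallen genes numbered 10 without replicate 2 of day 5 or replicate 3 of day 14. Of the 11 members for allantoin, a purine breakdown product that yeast can use as nitrogen, and urea, a group set apart after the values were seen, 9 fell and none rose. The smallest of these falls was that of DAL3 (-0.31), which makes urea, with overlapping days and an adjusted p of 0.0365 that was 0.0687 and 0.12 without replicates 2 and 3 of day 5 and 0.177 and 0.0971 without replicates 3 and 4 of day 14. The activators DAL81 and DAL82 were not called. DAL5, the allantoate permease, read 3364, 4120.0 and 4632 at day 5 and 1572, 1399 and 1256 at day 14 (-1.50 ± 0.18, adjusted p = 2.64e-05). DAL4, the allantoin permease, read 299, 576 and 392 at day 5 and fell at least 3.63-fold (adjusted p = 7.24e-06), and DAL1, the allantoinase, read 270.4, 343 and 286 and fell at least 2.69-fold (adjusted p = 6.83e-05), both lying below the bound at day 14. DAL7, a malate synthase, went from 992, 1257 and 1345 to 443, 480.4 and 483 (-1.31 ± 0.15, adjusted p = 1.94e-05). The members of the list that rose were AGP1 and PUT3 (0.53 ± 0.09, adjusted p = 0.000454), the activator of proline use. Sulfate and methionine genes had 8 rises and 7 falls among 36. The rises numbered 5 without replicate 3 of day 14, and the falls 4 without replicate 2 of day 5 or replicate 4 of day 14. The activators MET32 (1.03 ± 0.24, adjusted p = 0.00325) and MET4 (0.66 ± 0.10, adjusted p = 0.000116) rose, and the methionine synthase gene MET6 (-0.75 ± 0.13, adjusted p = 0.000487) and SAH1 (-0.66 ± 0.12, adjusted p = 0.000626) fell. Of 18 purine genes 3 rose, ADE12 (0.77 ± 0.11, adjusted p = 7.81e-05) among them, and 5 fell, SHM2 (-1.03 ± 0.14, adjusted p = 5.27e-05) among them.

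Few genes of sugar breakdown were called. Of 28 genes of glycolysis and ethanol formation 7 fell and 2 rose, shares near those of all genes on the falling side, and the median was -0.18. TDH3, the main glyceraldehyde-3-phosphate dehydrogenase, stayed among the brightest genes, at 15075, 16001 and 14662 at day 5 and 12756, 9389.7 and 11055 at day 14 (-0.47 ± 0.13, adjusted p = 0.00793), and the enolase ENO2 went from 11713, 12410.0 and 10990.0 to 9175, 5594 and 8543 (-0.62 ± 0.16, adjusted p = 0.00623). ADH2, the dehydrogenase that consumes ethanol and is repressed by glucose, rose from 137, 169 and 199 to 306, 318 and 271 (0.78 ± 0.16, adjusted p = 0.00104), a level still low on these arrays. Hexose transporters, whose sequences are close enough for probe sets to cross-hybridise, moved in opposite directions. HXT5, made when growth is slow, rose from 1374, 1759.9 and 3043 to 4402, 5524 and 4905 (1.33 ± 0.32, adjusted p = 0.00392), and GAL2 from 109, 104 and 95.1 to 231, 292 and 224 (1.15 ± 0.29, adjusted p = 0.00559). HXT4 and HXT3, a high- and a low-affinity carrier of glucose, fell: HXT4 from 4186, 4411 and 4540.0 to 2184, 1819 and 2203 (-1.08 ± 0.11, adjusted p = 1e-05) and HXT3 from 11188, 11474 and 11176 to 8077, 6329 and 7879.9 (-0.61 ± 0.10, adjusted p = 0.000235). Only 8 of the 17 genes of this list were above the bound on either day. Among 34 genes of glucose repression and nutrient signalling 8 rose and 3 fell, the rises numbering 5 without replicate 1 or 2 or 3 of day 5 or replicate 1 of day 14. Beside CAT8 rose REG1, a subunit of the phosphatase that keeps repression on, from 1443, 1477 and 1318 to 2314, 2197 and 2116 (0.64 ± 0.19, adjusted p = 0.0136). STD1, which interacts with the glucose-sensing Snf1 kinase, fell from 1842, 2049 and 1750.1 to 1314, 978 and 1119.9 (-0.73 ± 0.16, adjusted p = 0.0021). For the Ehrlich pathway, esters and aryl alcohol dehydrogenases 8 of 23 genes fell, BAT1, PDC6, ADH6 and ARO8 by the most, and ARO10 was the larger of 2 rises.

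Genes of respiration and of carbon sources other than sugar gave no uniform picture. In the gluconeogenesis, glyoxylate and C2 list 4 of 25 rose and 5 fell. JEN1, the lactate and pyruvate permease, rose from 434, 488 and 685 to 1022, 1349 and 1202 (1.15 ± 0.18, adjusted p = 0.000162), and PCK1, the key enzyme of gluconeogenesis, from 643, 706 and 917 to 1039, 1187 and 1091 (0.55 ± 0.15, adjusted p = 0.00871). ACS2, the acetyl-CoA synthetase used on glucose, fell from 3403, 4059 and 4276 to 1594, 967 and 1487 (-1.55 ± 0.15, adjusted p = 5.11e-06). Against a 5.36-fold rise of their activator CAT8, the rises of JEN1 and PCK1 were 2.21-fold and 1.47-fold. Of 18 genes of the tricarboxylic acid cycle, CIT3 rose from 107, 103 and 106 to 244, 308 and 241 (1.20 ± 0.11, adjusted p = 2.2e-06) and LSC2, a subunit of succinyl-CoA ligase, fell from 1719.6, 1739 and 1959 to 694, 434 and 542 (-1.69 ± 0.13, adjusted p = 1.09e-06), beside 1 other rise and 2 other falls. Respiratory chain and ATP synthase genes had 8 rises and 8 falls among 42, the rises numbering 2 without replicate 2 of day 5, 3 without replicate 1 of day 5 or replicate 3 of day 14, 4 without replicate 3 of day 5 and 5 without replicate 1 or 4 of day 14. ATP5 fell from 4093, 4096 and 4666 to 2544, 1736 and 2014 (-1.04 ± 0.16, adjusted p = 0.000125). In peroxisomes, the catalase CTA1 rose from 1809, 1777 and 2389.8 to 4715, 5363 and 4260.1 (1.26 ± 0.13, adjusted p = 7.24e-06) and the fatty acid transporter PXA1 from 1232, 1384 and 1719 to 2301, 2952 and 2268 (0.79 ± 0.14, adjusted p = 0.000437), while ANT1, the peroxisomal ATP carrier, fell from 494, 558 and 682 to 260.3, 255 and 224 (-1.17 ± 0.13, adjusted p = 1.74e-05).

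Small heat shock proteins were among the brightest genes on both days. None of the 7 genes of small heat shock proteins and disaggregation was called, where 43.5% of all genes were. HSP26 read 14713, 15135 and 15624 at day 5 and 15310.0, 15568 and 15342 at day 14 (0.02 ± 0.07, adjusted p = 0.804), and HSP104, the disaggregase, 10453, 10571 and 9888 at day 5 and 10472, 10536 and 9798 at day 14 (-0.01 ± 0.09, adjusted p = 0.972). HSP12, a membrane-stabilising protein of stationary phase, read 14523, 14360.0 and 16166 at day 5 and 12344, 14051 and 11830.0 at day 14 (-0.24 ± 0.10, adjusted p = 0.0782). The brightest gene of a VIN13 array of these days lay between 15937 and 18392. Of 10 trehalose genes 1 was called, TPS3 (-0.71 ± 0.14, adjusted p = 0.00096), a regulatory subunit of the synthase complex. TPS1, the synthase itself, read 8183, 8544 and 7557 at day 5 and 8199.6, 5935 and 6935 at day 14 and was not called (-0.22 ± 0.19, adjusted p = 0.389). For glycogen 3 of 14 genes rose, GAC1 (0.81 ± 0.24, adjusted p = 0.0131) being the largest, and 3 fell, with GDB1 (-0.75 ± 0.20, adjusted p = 0.00749), the debranching enzyme, the largest. The adjusted p of GAC1 was 0.053 without replicate 1 of day 14.

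Chaperones of the Hsp70 and Hsp90 systems moved both ways. Of 32 genes 14 rose and 6 fell. YDJ1, the main cytosolic J-protein, rose from 6004, 6089.8 and 5912 to 10599, 10807 and 9632 (0.78 ± 0.10, adjusted p = 2.91e-05), AHA1, which stimulates Hsp90, from 4866, 4766 and 4317 to 8141, 7256 and 7439 (0.71 ± 0.12, adjusted p = 0.000288), and FES1, a nucleotide exchange factor of Hsp70, from 6357, 6542 and 6611 to 9731, 11100.0 and 10278 (0.67 ± 0.12, adjusted p = 0.00053). SSB1 and SSB2, the near-identical Hsp70 proteins that bind nascent chains on the ribosome, fell: SSB1 from 9208, 9780.2 and 9502 to 5756, 3726 and 4752 (-1.02 ± 0.12, adjusted p = 1.74e-05) and SSB2 from 6060.2, 6281 and 6161 to 2869, 1850.0 and 2456 (-1.38 ± 0.15, adjusted p = 1.04e-05). The days did not overlap in any of these 5 genes.

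The general stress response did not rise as a block. Of 51 genes 19 fell and 6 rose, at a median of -0.14. Besides HBT1, GAD1, the glutamate decarboxylase, fell from 3674, 4042 and 3505 to 1622, 1358 and 1353 (-1.37 ± 0.17, adjusted p = 3.08e-05), and GND2, the minor 6-phosphogluconate dehydrogenase, from 4490.4, 4813 and 6202 to 2484, 1869.6 and 1913 (-1.30 ± 0.16, adjusted p = 3.07e-05). RPI1, a transcription factor that readies the wall for stationary phase, rose from 2139, 2247 and 1906 to 4931, 5268 and 4124 (1.18 ± 0.31, adjusted p = 0.00665), and MRK1, a kinase of the GSK-3 family, from 359, 430.4 and 419 to 978, 899 and 788 (1.11 ± 0.21, adjusted p = 0.000803). Genes of defence against oxidants were mostly lower, with 19 of 35 falling and 2 rising (median -0.31). SOD2, the mitochondrial superoxide dismutase, read 8344, 8868 and 7963 at day 5 and 4478, 2077 and 3240.5 at day 14 (-1.42 ± 0.20, adjusted p = 7.62e-05), and OYE3, an NADPH oxidoreductase, 1237, 1462 and 1839.7 at day 5 and 729, 458 and 575 at day 14 (-1.35 ± 0.21, adjusted p = 0.000151). The late arrays were all lower in both. CTA1, given above, and the regulator SKN7 (0.76 ± 0.14, adjusted p = 0.000683) were the members that rose. Among 14 genes named for survival in stationary phase 5 rose and 2 fell. SPG5, required for survival at high temperature in stationary phase, rose from 2754, 2976 and 3963 to 6362, 7024 and 6191 (1.03 ± 0.12, adjusted p = 1.74e-05) and SPG3 from 3292, 3312 and 4367 to 4744, 6459 and 5913 (0.64 ± 0.13, adjusted p = 0.00142), whereas SPI1, a wall protein, at 14747, 14609 and 14564 at day 5 and 15206, 14685 and 14878 at day 14, was not called (0.03 ± 0.07, adjusted p = 0.77). Of the genes of glycerol synthesis, GPD1, for the first enzyme, fell from 8919, 9756 and 8044 to 5748, 2891 and 4339 (-1.09 ± 0.21, adjusted p = 0.000781), and so did the phosphatases GPP1 (-0.87 ± 0.17, adjusted p = 0.000881) and GPP2 (-1.01 ± 0.14, adjusted p = 6.83e-05). GPD2, the other isoform of the first enzyme, read 1608, 1603 and 1166 at day 5 and 1519, 278 and 1180.1 at day 14 and was not called (-0.84 ± 0.52, adjusted p = 0.209). In that list of 19 genes 8 fell and 4 rose, ENA5 among them.

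Membrane and wall genes were lower on the side of sterols. Of 29 ergosterol genes 17 fell and 3 rose, at a median of -0.38. In a fit of the 6 arrays alone 11 of them fell. ERG20, which makes farnesyl pyrophosphate, read 6371, 6627 and 8257 at day 5 and 3364, 1897 and 2829.8 at day 14 (-1.42 ± 0.16, adjusted p = 1.74e-05), and MVD1, of the mevalonate branch, 2684, 3054 and 2996 at day 5 and 1437, 901 and 1119.6 at day 14 (-1.35 ± 0.19, adjusted p = 9.09e-05). ARE2, which esterifies sterols for storage, went the other way, from 202, 269 and 201 to 524, 462 and 523 (1.12 ± 0.11, adjusted p = 5.86e-06). No array of one day reached those of the other in these genes. Phospholipid and fatty acid genes were mostly not called, with 5 rises and 2 falls among 32. INO1, which makes inositol phosphate, rose from 6274, 6278 and 6286 to 10816, 9348 and 9606 (0.66 ± 0.08, adjusted p = 3.48e-05). Transporters of the pleiotropic drug and weak acid group rose in 10 of 26 cases and fell in 1, at a median of 0.26. PDR10 went from 1751, 1748 and 1711 to 4109, 3112 and 3958 (1.08 ± 0.13, adjusted p = 2.98e-05), PDR5, the broad drug efflux pump, from 1855, 1890.1 and 1464 to 3317, 2807 and 2991 (0.81 ± 0.18, adjusted p = 0.00211), and the polyamine exporter TPO4 (-0.73 ± 0.15, adjusted p = 0.0012) fell.

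In the wall, 17 of 44 genes fell and 4 rose. With DSE2 fell DSE1, another daughter-cell gene, from 389, 392 and 488 to 174, 195 and 156 (-1.20 ± 0.20, adjusted p = 0.000257), and CWP1, a mannoprotein, from 1583, 1907 and 1145 to 872, 481 and 650.1 (-1.20 ± 0.25, adjusted p = 0.00134). CHS1 and CHS3, both chitin synthases, rose: CHS1 from 3812, 3724 and 3694 to 5258, 6054 and 5321 (0.56 ± 0.10, adjusted p = 0.000357) and CHS3 from 1069, 1302 and 1285 to 1699.6, 1663 and 1869 (0.51 ± 0.10, adjusted p = 0.001). None of the 13 seripauperin genes, a family of near-identical anaerobically made wall proteins, was called, and their differences ran from -0.25 to 0.18. PAU5 read 14689, 15348 and 13952 at day 5 and 15370.0, 13411 and 15115 at day 14 (-0.00 ± 0.10, adjusted p = 0.978). Among 29 hypoxic and anaerobic genes 6 fell and 1 rose, with a median of -0.04, near that of all genes, and the falls numbered 1 without replicate 2 of day 5 and 2 without replicate 1 of day 5 or replicate 3 of day 14.

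Metal genes rose more often than they fell, where 19% of all genes rose. Of 35 iron and copper genes 11 rose and 1 fell (median 0.23), the rises numbering 7 without replicate 1 of day 5. CUP2, the copper-sensing activator, rose from 2985, 3125 and 3163 to 6082, 5541 and 5741 (0.90 ± 0.10, adjusted p = 1.26e-05), CCC2, which loads copper into the iron oxidase, from 342, 403 and 415 to 534, 608 and 613 (0.58 ± 0.11, adjusted p = 0.000603), and FET5, a vacuolar copper oxidase, from 1412, 1499 and 1406 to 2292, 2130.2 and 2249.7 (0.62 ± 0.16, adjusted p = 0.00682). In the zinc and phosphate list 7 of 32 rose, a share near that of all genes, with SPL2, a regulator of phosphate uptake, going from 282, 278 and 283 to 488, 501 and 444 (0.73 ± 0.13, adjusted p = 0.000565), and 3 fell, with the low-affinity zinc carrier ZRT2 going from 676, 749 and 746 to 359, 287 and 347 (-1.10 ± 0.12, adjusted p = 1.04e-05). For thiamine, vitamin B6 and biotin 9 of 26 genes fell and none rose. The biotin carrier VHT1 went from 493, 569 and 590.1 to 301, 239.5 and 232 (-1.05 ± 0.15, adjusted p = 7.96e-05).

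Genes of protein turnover moved both ways. In the vacuole and autophagy list 9 of 39 genes rose and 5 fell, where 19% of all genes rose and 24.5% fell. ATG9, the membrane protein that seeds autophagosomes, rose from 639, 685 and 765 to 1101, 1357 and 1116 (0.76 ± 0.18, adjusted p = 0.0041), and ATG39 and ATG40, receptors for autophagy of the nuclear envelope and the endoplasmic reticulum, rose too: ATG39 from 3052, 3518 and 3539 to 5280.2, 5452 and 5902 (0.72 ± 0.19, adjusted p = 0.00735) and ATG40 from 2233, 2121 and 2737 to 3819.8, 4009.7 and 3749 (0.71 ± 0.12, adjusted p = 0.000316). The cargo protein APE1, an aminopeptidase, and its receptor ATG19 fell, APE1 from 2715, 2767 and 2722 to 1654, 1283 and 1478 (-0.89 ± 0.18, adjusted p = 0.00127) and ATG19 from 2253, 2365 and 2574 to 1786, 1436 and 1404 (-0.64 ± 0.11, adjusted p = 0.000486). Of 39 proteasome genes 10 fell, a share near that of all genes, and 4 rose. The falls numbered 4 without replicate 3 or 4 of day 14 and 6 without replicate 3 of day 5. RPN4, the activator of proteasome genes, rose from 9116, 9030.3 and 9684 to 12908, 13857 and 12566 (0.50 ± 0.10, adjusted p = 0.00124).

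Cyclins had the largest falls among cell cycle genes. Of 56 genes of the cycle and of replication 19 fell and 6 rose. With CLN3 fell CLN1, from 397, 430.5 and 334 to 159, 108 and 103 (-1.55 ± 0.18, adjusted p = 2.19e-05), and CLN2, which read 189, 235 and 143 at day 5 and fell at least 1.66-fold (adjusted p = 0.000513). The mitotic cyclin CLB2 read 189, 226 and 189 at day 5, was below the background bound at day 14 and fell at least 1.86-fold (adjusted p = 0.00111). CLB3, another B-type cyclin, rose from 888, 939 and 936 to 1283, 1289 and 1306 (0.48 ± 0.09, adjusted p = 0.000457). Genes of DNA synthesis and repair were among the rises, with RAD27, the flap endonuclease, going from 430.1, 479 and 342 to 783, 886 and 868 (1.0 ± 0.14, adjusted p = 8.94e-05) and RFA1, a single-strand binding protein, from 1183, 1188 and 1234 to 1699.7, 1805 and 1736 (0.53 ± 0.07, adjusted p = 6.38e-05). Of 10 histone genes, several of them near-identical copies, 2 rose and 1 fell, and the core histone gene HTA1 read 9964, 9446 and 9787 at day 5 and 10503, 9597 and 9311 at day 14 (0.01 ± 0.09, adjusted p = 0.943).

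Genes of meiosis and mating, which are low in growing diploid cells, were called higher more often than lower. Of 48 meiosis and sporulation genes, 34 of them above the background bound on at least 1 of the days, 19 rose and 2 fell, at a median of 0.36. SPR28, a septin of sporulation, read 129, 133 and 191 at day 5 and 419.9, 657 and 434 at day 14 (1.63 ± 0.24, adjusted p = 0.000108), RIM4, an RNA-binding regulator of early meiosis, 216, 253 and 220.2 at day 5 and 753, 709 and 582 at day 14 (1.5 ± 0.14, adjusted p = 3.33e-06), and MEK1, a kinase of meiotic recombination, 86.7, 96.3 and 122 at day 5 and 252, 283 and 339 at day 14 (1.39 ± 0.16, adjusted p = 1.44e-05). All late arrays were higher in all 3. The 2 that fell were the axis protein gene RED1 (-0.55 ± 0.17, adjusted p = 0.0178) and NDT80, the activator of middle meiosis, at 125, 169.9 and 256 at day 5 and 127, 130.3 and 101 at day 14 (-0.51 ± 0.20, adjusted p = 0.0445), whose days overlapped and whose call was lost in 11 of 18 other settings. Both were low throughout, and the adjusted p of RED1 was 0.0907 without replicate 3 of day 5 and 0.0877 without replicate 4 of day 14. Of 32 mating and haploid markers 11 rose and none fell (median 0.24), the rises numbering 6 without replicate 1 of day 5 and 7 without replicate 2 of day 5 and 6 with dim genes left out. The pheromone genes of both mating types were among them. MFA1, which encodes a-factor, rose from 517, 432 and 625 to 1473, 1712 and 1174 (1.44 ± 0.20, adjusted p = 8.62e-05), and MF(ALPHA)1, which encodes alpha-factor, was below the bound at day 5, read 159.8, 182 and 136 at day 14 and rose at least 1.49-fold (adjusted p = 0.00226). STE5, the scaffold of the mating kinases, rose from 384, 412 and 565 to 867, 903 and 825 (0.93 ± 0.16, adjusted p = 0.000338).

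Levels at day 2 place these changes in the course of the fermentation. Replicate 1 of VIN13 at day 2 had a ratio of 3′ to 5′ signal of ACT1 of 5.55, the highest of the VIN13 arrays. It is among the 4 arrays that an earlier look found to deviate together. In HBT1, DSE2, DAL4, TKL2, HXT5 and HSP12 it was the lowest day 2 array. The part of this array in the differences between day 2 and day 5 was not tested. The day 5 arrays serve in both intervals, so a chance deviation on them moves the differences of the intervals in opposite directions, and the values are given side by side only. YMR244W read 722, 671 and 540.4 at day 2, a level above day 5 (-1.41 ± 0.11 from day 2 to day 5, adjusted p = 2.17e-07) and far below day 14. AGP1 read 601, 1736 and 375, which overlaps with day 5 (-0.09 ± 0.45, adjusted p = 0.892). HXT5 had already risen before day 5, from 193, 301 and 304 (2.83 ± 0.32, adjusted p = 1.18e-05). The counts that follow are descriptions, without the share of all genes called between day 2 and day 5 beside them. Of the 113 genes that rose by at least 2-fold after day 5, 38 had already risen in that first interval and 8 had fallen. Of the 175 genes that fell by at least 2-fold after day 5, 55 had already fallen between day 2 and day 5 and 29 had risen. Of these 29, 4 are given. HBT1 read 146, 275 and 337 at day 2 (3.45 ± 0.28, adjusted p = 4.47e-07), DSE2 79.8, 128 and 139 (2.45 ± 0.39, adjusted p = 0.000242), DAL4 112, 163 and 126 (1.51 ± 0.23, adjusted p = 0.000139) and TKL2 436, 611 and 534 (1.82 ± 0.15, adjusted p = 6.28e-07). Each of them stood higher on every array of day 5 than on any of day 2 or day 14. RPS0B, by contrast, read 3485, 4720.2 and 4052 at day 2, overlapping with day 5 (-0.16 ± 0.23, adjusted p = 0.604), and so did CLN3, with 1309, 1936 and 1592 (0.43 ± 0.28, adjusted p = 0.238). The median of the ribosomal protein list was -0.16 from day 2 to day 5 and -0.61 from day 5 to day 14. HSP12 had risen by day 5, from 4999, 5485 and 6101 at day 2 (1.44 ± 0.10, adjusted p = 1.43e-07). Ergosterol genes had fallen before, at a median of -1.0 in the first interval.

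**Figure D4:**
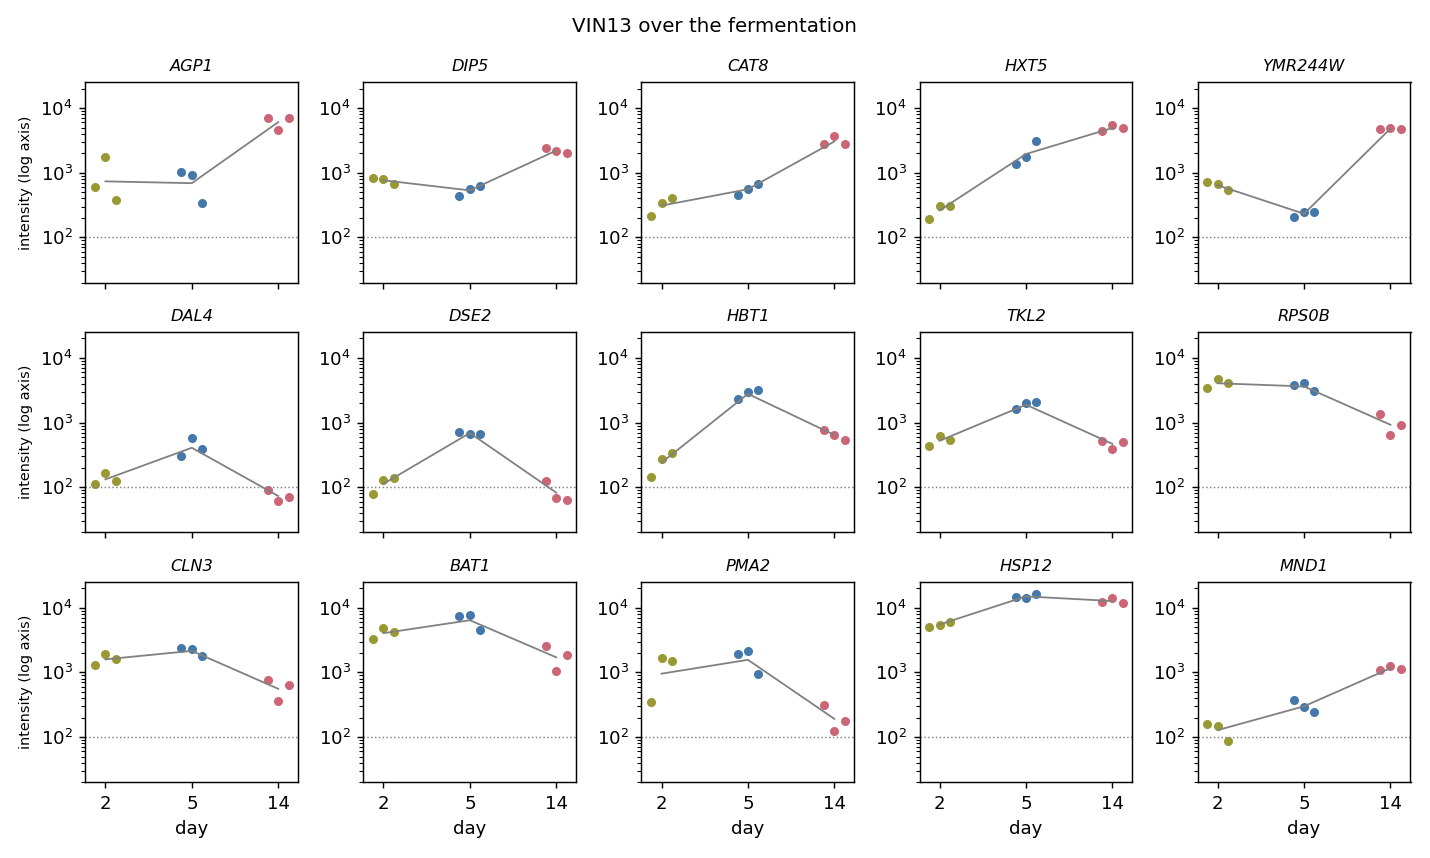
Points are single VIN13 arrays at days 2, 5 and 14, drawn at even spacing and not to scale in time, for 15 genes (intensity, log axes, 3 arrays a day), lines join the group means, and the dotted line is the background bound at 100.7. HBT1, DSE2, DAL4 and TKL2 peak at day 5, AGP1, DIP5, YMR244W, CAT8 and MND1 are highest at day 14, and RPS0B and CLN3 drop after day 5.

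BM45 was sampled on the same days, on 3 arrays each, and gave the change between day 5 and day 14 in another wine strain. There 3655 genes were called, 1208 of them with at least 2-fold change, against 288 in VIN13. Across the 5449 genes the changes of the strains correlated at 0.719, which is a description over genes that are not independent replicates. Median intensities of the BM45 arrays were 986.5 to 1023 at day 5 and 866.6 to 889.6 at day 14. The median of BM45 changes lay at -0.19, so a difference of the changes, VIN13 minus BM45, had a median of 0.15 and was called in 1861 genes (34.2%), with 1298 (23.8%) higher and 563 (10.3%) lower in VIN13. With every array centred on its median gene, 855 were higher and 1018 lower, and with quantile normalization 885 and 778, so the split of the calls turned with the scaling. The strain differences given with a p in the next paragraphs were called on both the deposited and the centred scale.

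AGP1 showed the largest difference. It rose 8.61-fold in VIN13, and in BM45 read 6004, 7124 and 6365 at day 5 and 4978, 5354 and 5696 at day 14 (-0.28 ± 0.45), a difference of 3.39 ± 0.64 (adjusted p = 0.00131). GAP1, the general amino acid permease, read 6960.4, 7258 and 6790.4 at day 5 and 6003, 4649 and 5646 at day 14 in VIN13 and 3358, 3802 and 3129 against 767, 727 and 627 in BM45. Its late arrays were lower in either strain, but by -0.37 ± 0.11 in VIN13 and -2.25 ± 0.11 in BM45, and the difference was 1.88 ± 0.16 (adjusted p = 7.28e-06). The fall of GAP1 within VIN13 (adjusted p = 0.0146) had an adjusted p of 0.0519 without replicate 2 of day 5 and of 0.0764 without replicate 3 of day 14. YPT6, a GTPase of traffic to the Golgi, and ETR1, of mitochondrial fatty acid synthesis, also fell less in VIN13, YPT6 changing by -0.84 ± 0.17 against -2.67 ± 0.17 (difference 1.82 ± 0.24, adjusted p = 0.000138) and ETR1 by -1.17 ± 0.14 against -2.80 ± 0.14 (difference 1.62 ± 0.20, adjusted p = 0.000107). PXA1 rose in VIN13 and was -0.82 ± 0.14 in BM45 (difference 1.61 ± 0.20, adjusted p = 0.000107).

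Among the differences in the other direction were those of nitrogen permeases. DUR3, the urea and polyamine permease, read 1458, 1833 and 1589 at day 5 and 1074, 1149 and 997 at day 14 in VIN13, a fall of -0.59 ± 0.10 (adjusted p = 0.000316), against 648, 585 and 655 and 1457, 1449 and 1626 in BM45 (1.24 ± 0.10), a difference of -1.83 ± 0.14 (adjusted p = 4.49e-06). DAL5 differed by -1.28 ± 0.26 (adjusted p = 0.00192). DAL4, which fell in VIN13, read 31.6, 31.6 and 29.8 at day 5 and 60.4, 33 and 43.1 at day 14 in BM45, all below the background bound, so that a fall could not have been measured there and no difference is given. YHI9, a protein of unknown function, fell from 883, 1006 and 1093 to 335, 323 and 267 in VIN13 (-1.64 ± 0.14, adjusted p = 1.53e-06), with 0.41 ± 0.14 in BM45 and a difference of -2.05 ± 0.19 (adjusted p = 1.8e-05). Of the largest changes in VIN13, YMR244W, PMA2 and HBT1 had the same direction in BM45, at 3.8 ± 0.11, -3.49 ± 0.59 and -2.02 ± 0.28.

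Lists also differed between the strains. The median of the ergosterol genes was -0.38 in VIN13 and -1.04 in BM45, and 18 of 29 had a higher change in VIN13 and none a lower one, or 14 and none on the centred scale. ERG20 differed by 0.99 ± 0.23 (adjusted p = 0.00466). For Hsp70 and Hsp90 partners 6 of 32 were lower and 4 higher, or 14 and 2 on the centred scale, with FES1 at -1.19 ± 0.17 (adjusted p = 0.000245) and YDJ1 at -0.89 ± 0.13 (adjusted p = 0.00036). Amino acid biosynthesis had 16 of 63 lower and 7 higher, or 25 and 4 centred, ARO8 differing by -1.11 ± 0.26 (adjusted p = 0.00529). The list of cytosolic ribosomal proteins fell in both strains, at medians of -0.61 and -0.75, and its difference turned with the scaling, from 14 higher and 5 lower to 6 and 12.

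**Figure D5:**
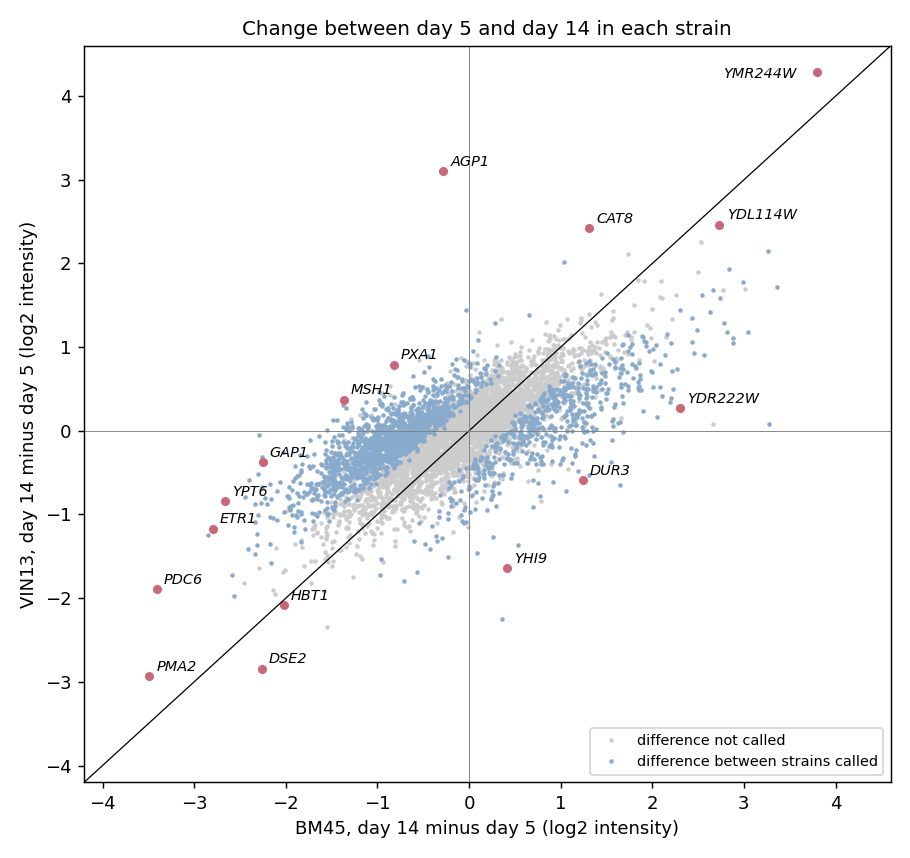
Each point is a gene, placed by its difference between day 14 and day 5 in BM45 (horizontal) and in VIN13 (vertical), both in log2 intensity, blue where the difference between the strains was called, with the diagonal of equal change and named genes in red. YMR244W and PMA2 lie far out near the diagonal, while AGP1 sits at 3.11 in VIN13 and -0.28 in BM45 and YHI9 at -1.64 and 0.41.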

How the data were processed

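Per the labels, total RNA was hybridised to Affymetrix yeast arrays and the authors made the deposited intensities with Affymetrix Expression Console. Neither its version nor the algorithm is named in the labels. The table of the whole series holds 10928 probe sets on 17 arrays, of which 5498 read S. cerevisiae and gave 5449 genes, the brightest probe set standing for the 47 genes with several. The 1746 probe sets of Schizosaccharomyces pombe set the background bound, the mean over arrays of their 95th percentile (6.87 on the log2 scale). Symbols came from the array annotation, 12 of them updated through RefSeq. The authors' files give no genome build, so no coordinates are printed, and promoter sequences were not analysed here.

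Intensities were taken as log2(value + 16) and fitted in R 4.3.3 with limma 3.58.1 (lmFit, then eBayes), a mean per strain and day over all 17 arrays (11 residual degrees of freedom). Contrasts were day 14 against day 5 in VIN13, the same in BM45, their difference, and day 5 against day 2 in VIN13, and p-values are two-sided. The fit was tested on simulated data in which genes and arrays varied independently, so that test cannot speak to deviations that arrays share. Where a group lay below the bound, its arrays were raised to the bound and the fold is given as at least that. Tables and figures were made in matplotlib 3.10.9, pandas 2.3.3 and numpy 2.4.6 on Python 3.11.15.

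The comparison and the 42 gene lists, with 1438 memberships matched and 47 not matched, were chosen with earlier results of these data known, so the counts are descriptions. The split of ribosomal proteins by subunit, the group for allantoin and urea and the lists of the closing section were added after the values were seen. Genes were named by a rule: the 15 largest rises and falls and the 8 largest strain differences in each direction among called genes above the bound with arrays that do not overlap, up to 4 called members per list and direction, the highest and lowest member, and all members of short lists. The text names fewer.

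Alternatives were pseudocounts of 1 and 64, quantile normalization, median centring, the mean over probe sets, eBayes with trend and robust, no dim genes, a fit of the compared arrays alone, arrayWeights, the replicate number as a block, the ACT1 ratio as a covariate, 4 arrays left out because an earlier look at these data found them to deviate together (BM45 day 2 replicate 4, VIN13 day 2 replicate 1, and replicate 3 of VIN13 at days 5 and 14), stricter calls, and each array left out in turn.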

Additional observations from a re-analysis of the deposited data

Results flagged for a closer look

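A difference between the strains in the change from day 5 to day 14 was called by limma in 34.2% of all genes. Genes were named above partly for large differences of this kind, so the counts here are descriptions. Among the 149 genes named above, 59 had such a called difference, 51 of them also with arrays centred on their median. Of these, 21 had a difference of at least 2-fold, and the 18 whose 4 groups lay above the background bound are given here, as the change in VIN13 minus that in BM45 on the log2 scale. AGP1 differed by 3.39 ± 0.64 (adjusted p = 0.00131), with 3.11 in VIN13 and -0.28 in BM45. GAP1 differed by 1.88, YPT6 by 1.82, ETR1 by 1.62 and PXA1 by 1.61. PDC6 differed by 1.52, CAT8 by 1.11 and TPO4 by 1.07. On the other side YHI9 differed by -2.05 and DUR3 by -1.83, and CIT3 by -1.28 and DAL5 by -1.28. URN1 differed by -1.21, GDH3 by -1.20, FES1 by -1.19 and YJL047C-A by -1.12. ARO8 differed by -1.11 and PHO13 by -1.09, lower in both strains. AGP2, ALP1 and DAL4 also passed, but at least 1 of their groups lay below the background bound, so no size is given. The difference of PDC6 was no longer called without replicate 1 of VIN13 day 5 or of day 14 (highest adjusted p = 0.0543), and that of YJL047C-A was lost when any of 7 single arrays was left out (highest adjusted p = 0.0903).

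The control probe sets for ribosomal RNA, which were not among the genes tested, were higher at day 14 in VIN13. The 3′ control of the 25S RNA was 22-fold higher as a ratio of geometric means of the 3 arrays each, and that of the 18S RNA, which read below the background bound on all 3 arrays of day 5, at least 47.2-fold higher, with no overlap. In BM45 the 25S control also lay higher, between 2701 and 8838 at day 14 against 455 to 864 at day 5. The highest 25S value of any day 2 or day 5 array, in either strain, was 1876.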

How the results depend on the processing

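For VIN13 day 14 against day 5, no alternative run, stricter calls aside, moved the counts of 1034 rises and 1337 falls by over 1.5 times. With arrayWeights the counts came near that limit, at 1521 and 1997. With an adjusted p under 0.01 they were 669 and 889, and with at least 2-fold changes 113 and 175, fewer by construction. Leaving out 1 array at a time gave 756 to 1029 rises, 1047 to 1390 falls and medians over all genes of -0.0611 to -0.0021. For the strain difference the 1298 higher and 563 lower genes became 855 and 1018 with median centring, 2176 and 1322 with arrayWeights, and 2176 and 1002 without the 4 arrays that deviate together. In a fit of the arrays compared alone 868 were lower. With an adjusted p under 0.01 there were 758 and 273, with at least 2-fold differences 265 and 162, and leaving out 1 array gave 961 to 1438 and 409 to 617. The cause of these shifts was not tested. With the replicate number as a block 1175 genes rose and 1149 fell. Numbers 1 and 3 are shared by the days, the deviations of same-numbered arrays correlated at 0.413 and 0.566 and those of other pairs at -0.539 to 0.424, and with 2 such pairs the numbers are not taken as a pairing. Of 136 named genes that were called, 130 kept the call in all those of 18 refits that tested them, and no named called gene changed direction. Genes with a mean below the bound were not tested in the fit without dim genes. Those that lost the call in a refit were ARG3, DAL3, GAC1, GAP1, RED1 and NDT80. Of the lists' medians, 741 of 756 refitted values moved by less than the spread between arrays. Counts of 5 or fewer genes in a list rest on few arrays and moved by over 1.5 times in several lists when 1 was left out. Intensities below the bound of 100.7 limit the fold of dim genes, and 3 arrays a group limit every value.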

Other observations

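The pentose phosphate pathway, which makes NADPH and ribose, was looked at after its values were seen, so its count is a description. Of its 11 genes 9 fell in VIN13 and none rose, at a median of -1.05, where 24.5% of all genes fell. TAL1, the transaldolase, read 6341, 6649.6 and 5757 at day 5 and 2992, 1549 and 2422 at day 14 (-1.47 ± 0.19, limma adjusted p = 4.23e-05). SOL3, a 6-phosphogluconolactonase, read 1821, 1863 and 1826 at day 5 and 803, 591 and 655 at day 14 (-1.42 ± 0.13, adjusted p = 2.94e-06), and TKL1, the main transketolase, read 3287, 3791 and 3152 at day 5 and 2021, 1212 and 1704 at day 14 (-1.07 ± 0.15, adjusted p = 6.98e-05). All late arrays were below all early ones in these genes. ZWF1, the entry enzyme of the pathway, read 2614, 2758 and 1845 at day 5 and 3436, 1809 and 2141 at day 14 and was not called (0.00 ± 0.24, adjusted p = 0.999), and in BM45 it stood at 1.12 ± 0.24. The median of the pathway in BM45 was -0.88.

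Aminoacyl-tRNA synthetases of the cytosol, also chosen after the values were seen, fell in 18 of 19 cases, with a median of -0.60. SES1, for serine, went from 2366, 2495 and 2873 to 913, 708 and 789 (-1.67 ± 0.10, adjusted p = 1.47e-07) and KRS1, for lysine, from 1753, 1737 and 1509.5 to 769, 610.0 and 682 (-1.26 ± 0.13, adjusted p = 1.04e-05). ARC1, the cofactor that binds a pair of these enzymes, went from 1882, 1930.1 and 1796 to 868, 625 and 621 (-1.40 ± 0.12, adjusted p = 2.07e-06). ALA1, for alanine, rose by 0.24 ± 0.09 (adjusted p = 0.0352), a call that 6 of 18 refits lost.

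Short open reading frames whose systematic names carry a letter suffix were a class with an uneven share. Of 142 such genes 56 (39.4%) rose and 5 (3.52%) fell, against 19% and 24.5% of all genes, and 20 (14.1%) rose by at least 2-fold, against 2.07%. Of those 20, the mean of the brighter day was above the background bound in 16, and 19 had a positive difference in BM45. Among all 113 genes that rose by at least 2-fold these numbers were 101 and 111. YOR032W-A read 449, 372 and 308 at day 5 and 1291, 997 and 1265 at day 14 (1.62 ± 0.18, adjusted p = 1.44e-05) and YBR182C-A read 243, 245 and 257 at day 5 and 630.4, 816 and 652 at day 14 (1.43 ± 0.25, adjusted p = 0.000372). These genes are dim, with a median intensity of 139.8 at day 14 against 936.2 over all genes. The part of dimness, of the ribosomal RNA signal and of cross-hybridisation in this share was not tested.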
